A study of Rattus norvegicus with 9 samples.

Results

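The heat shock and chaperone genes followed here are 9 genes measured in the rat supraoptic nucleus under dehydration: Hsp90ab1, Hspa8, Hspa4, Dnaja1, Hspd1, Hspe1, Hspb1, Cryab and Hmox1. The members were the probe sets whose annotation gives exactly 1 of these symbols. This gave 20 probe sets for 8 of the 9 genes, out of 8740 probe sets that are not array controls, of which 7006 carry 1 symbol, for 4736 genes in all. Hsp90ab1 and Hspb1 had 4 probe sets each and Hspd1, Hspe1, Hspa4, Dnaja1, Cryab and Hmox1 had 2 each. Hspa8 had none of its own: both probe sets that carry its symbol also list Haus8l2, so they are described by probe set and are not counted. The group is not wholly cytosolic or wholly made of chaperones, since Hspd1 and Hspe1 work in mitochondria and Hmox1 is an enzyme of the endoplasmic reticulum membrane.

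The supraoptic nucleus is a hypothalamic cell group that makes vasopressin and oxytocin. The animals were male rats of the Sprague Dawley strain, 10 to 12 weeks old, and total RNA was used. It was measured on 3 Affymetrix arrays of control animals, 3 arrays of animals dehydrated for 1 day and 3 arrays of animals dehydrated for 3 days. Titles give each array a letter (a, b or c) within its group. What a letter means, how dehydration was imposed and whether an array holds 1 animal or a pool are not stated, so the spread between arrays may be partly technical.

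Chaperones bind unfolded or partly folded proteins and keep them from aggregating. HSP70 proteins such as Hspa8, the constitutive form, hold client proteins in an ATP-driven cycle that J-domain proteins such as Dnaja1 start and that exchange factors such as Hspa4 reset, and HSP90 proteins such as Hsp90ab1 take over clients near their folded state. Hspd1 and Hspe1 form the folding chamber of the mitochondrial matrix, the small heat shock proteins Hspb1 and Cryab hold unfolded clients without ATP and are prominent in glia, and Hmox1 breaks down heme. Many of these genes are induced through HSF1, which binds inverted repeats of the letters GAA, while Hmox1 is a classical target of the antioxidant factor NRF2.

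The promoter sequences show which members carry the inverted repeat that HSF1 recognises. RefSeq promoters on GRCr8, running from 250 bases before to 50 bases after the start, were found for 7 of the 9 genes, and none was matched for Cryab or Hmox1. The cores GAANNTTC and TTCNNGAA, each its own reverse complement so that both strands are read together, and which may overlap, occurred in 5 of the 7 windows, with 4 in Hspa8, 3 each in Hspd1, Hspe1 and Dnaja1 and 2 in Hspb1. The windows of Hsp90ab1 and Hspa4 held none. Of 33469 promoters of the same length, 15.9% held at least 1 such core. The antioxidant core TGANNNNGC or its reverse complement GCNNNNTCA occurred in 3 of the 7 windows (Hspd1, Hspe1 and Hspa4), those of Hspd1 and Hspe1 being 1 site in the stretch the windows share, against 40.5% of all promoters. Hspd1 and Hspe1 lie head to head: their windows share 211 bases, and the 3 heat shock cores of one are the same 3 cores as those of the other, packed into 18 bases at chr9:64084262-64084279. The Hspa8 window, with 4 cores, is not printed. The stretches below, with the bases covered by heat shock cores in capitals, are those of Hspe1, Hspb1 and Dnaja1. They are the last 120 bases before the Hspe1 start, 60 bases of Hspb1 (150 to 91 before the start) and 2 pieces of Dnaja1 (200 to 161 before the start, and bases 6 to 35 after it). A match is a run of letters in this window and not a measured binding site.
Hspe1, chr9:64084207-64084326, plus strand: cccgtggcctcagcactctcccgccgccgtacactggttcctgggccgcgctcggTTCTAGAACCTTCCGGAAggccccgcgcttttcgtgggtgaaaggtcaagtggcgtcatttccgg
Hspb1, chr12:26432392-26432451, minus strand: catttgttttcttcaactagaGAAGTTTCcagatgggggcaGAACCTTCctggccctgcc
Dnaja1 before the start, chr5:60638204-60638243, plus strand: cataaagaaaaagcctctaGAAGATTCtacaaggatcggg
Dnaja1 after the start, chr5:60638409-60638438, plus strand: ggcgGAACTTTCCAGAAcgctcggtgggtg

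Values are the deposited MAS5 signals, linear intensities with no unit, and a signal of 1 probe set says nothing of the level of another. Median signals per array lay between 26.9 and 40.4. The highest signal was 2105 on control array c and 2239 on 1-day array c, against 3867 to 6295 on the other 7 arrays, so the brightest probe sets, Hsp90ab1 among them, were low on those 2 arrays. The 3'/5' signal ratio of the Gapdh control probe sets was 1.55 on 3-day array c, which also had the highest maximum signal, and 0.85 to 1.12 on the other 8 arrays. That of beta-actin was 0.74 to 1.07 in controls, 1.13 to 1.48 at 1 day and 0.99 to 1.43 at 3 days. Of 13 magnocellular genes 12, Avp and Oxt among them, had a probe set, and none was at 0. Their summed signal was 6301 to 10146 in controls, 6990 to 12217 at 1 day and 12798 to 15495 at 3 days. In the first 2 groups the lowest sum was that of array c. The blood and endothelial lists had none at 0 either, so these values do not test the tissue label. The number of arrays, 3 in a group, limits the precision.

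No member probe set passed the test in any comparison. The test was limma on log2(signal + 4), with Benjamini-Hochberg adjustment over the 5247 probe sets whose mean signal over all 9 arrays was at least 23.1, and a threshold of 0.05. Of the 20 member probe sets, 19 reached that signal, and the Hmox1 probe set J02722cds_at did not. Adjusted p values of the 19 were 1.00 at 1 day and at 3 days against control and 0.998 for 3 days against 1 day. Because the same controls serve both comparisons, the values at 1 and 3 days are not independent.

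At 1 day, 3 of the 19 member probe sets were higher than control and 16 were lower, with a median log2 difference of -0.24, where all 5247 had a median of 0.02 and 2763 higher against 2484 lower. The share called over all probe sets was 0%, and 0 of 19 members were called. At an unadjusted p under 0.05 limma had 0 members and 1.01% of all. No member's 1-day arrays lay wholly above or wholly below the controls, where 2.63% of all probe sets lay above and 1.58% below. Across arrays of the same letter, 2 members were higher in all 3 pairs (background 16.8%) and 4 lower in all 3 (background 9.28%). The differences of 15 members were smaller than 1 SE of the fit. The split moved with single arrays: without 1-day array a, 8 members were higher and 11 lower.

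At 3 days, 8 members were higher and 11 lower than control, with a median log2 difference of -0.08 against 0.02 over all probe sets, of which 2715 were higher and 2532 lower. Again 0 members and 0% of all were called, and 0 members and 1.72% of all had an unadjusted p under 0.05. All 3 arrays lay above all controls for 1 member (Hsp90ab1, rc_AI007820_s_at; background 4.73%) and below for 1 (Dnaja1, rc_AA800551_at; background 3.01%). By letter, 1 member was higher in all 3 pairs (background 16.9%) and 6 were lower (background 13.2%). Those 6 were both probe sets of Hspd1, both of Hspe1, 1 of Dnaja1 and 1 of Hmox1. Probe sets of 1 gene were counted singly and all share the same control arrays, so the 6 are not independent. Without 3-day array a the split turned to 11 higher and 8 lower, with a median of 0.19.

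Between 3 days and 1 day, 10 members were higher at 3 days and 9 lower, with a median of 0.02 against 0.0013 over all probe sets. None was called, as for 0% of all, and 0 members and 1.83% of all had an unadjusted p under 0.05. The arrays of 1 member (Hsp90ab1, rc_AI007820_s_at) lay wholly higher at 3 days (background 3.05%) and those of 0 members wholly lower (background 2.67%). All 3 letter pairs were higher for 3 members (background 12.5%) and lower for 3 (background 12.9%). Without 1-day array c, or without 3-day array a, 13 members were higher and 6 lower.

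The letters carried shared variation, so each comparison was also fitted with the letter as a block. The adjusted p of every member stayed above the threshold, with a lowest value of 0.958 at 1 day, 0.873 at 3 days and 0.770 between them. Unadjusted p values under 0.05 with the replicate block were found for 1 of 19 members at 1 day (Hspb1, rc_AA998683_g_at), where 2.59% of all probe sets had them, for 2 at 3 days (Dnaja1, rc_AA800551_at, and Hspd1, rc_AA858640_s_at; background 5.15%) and for 2 between 3 days and 1 day (rc_AA998683_g_at and rc_AA858640_s_at; background 5.24%).

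**Figure D1:**
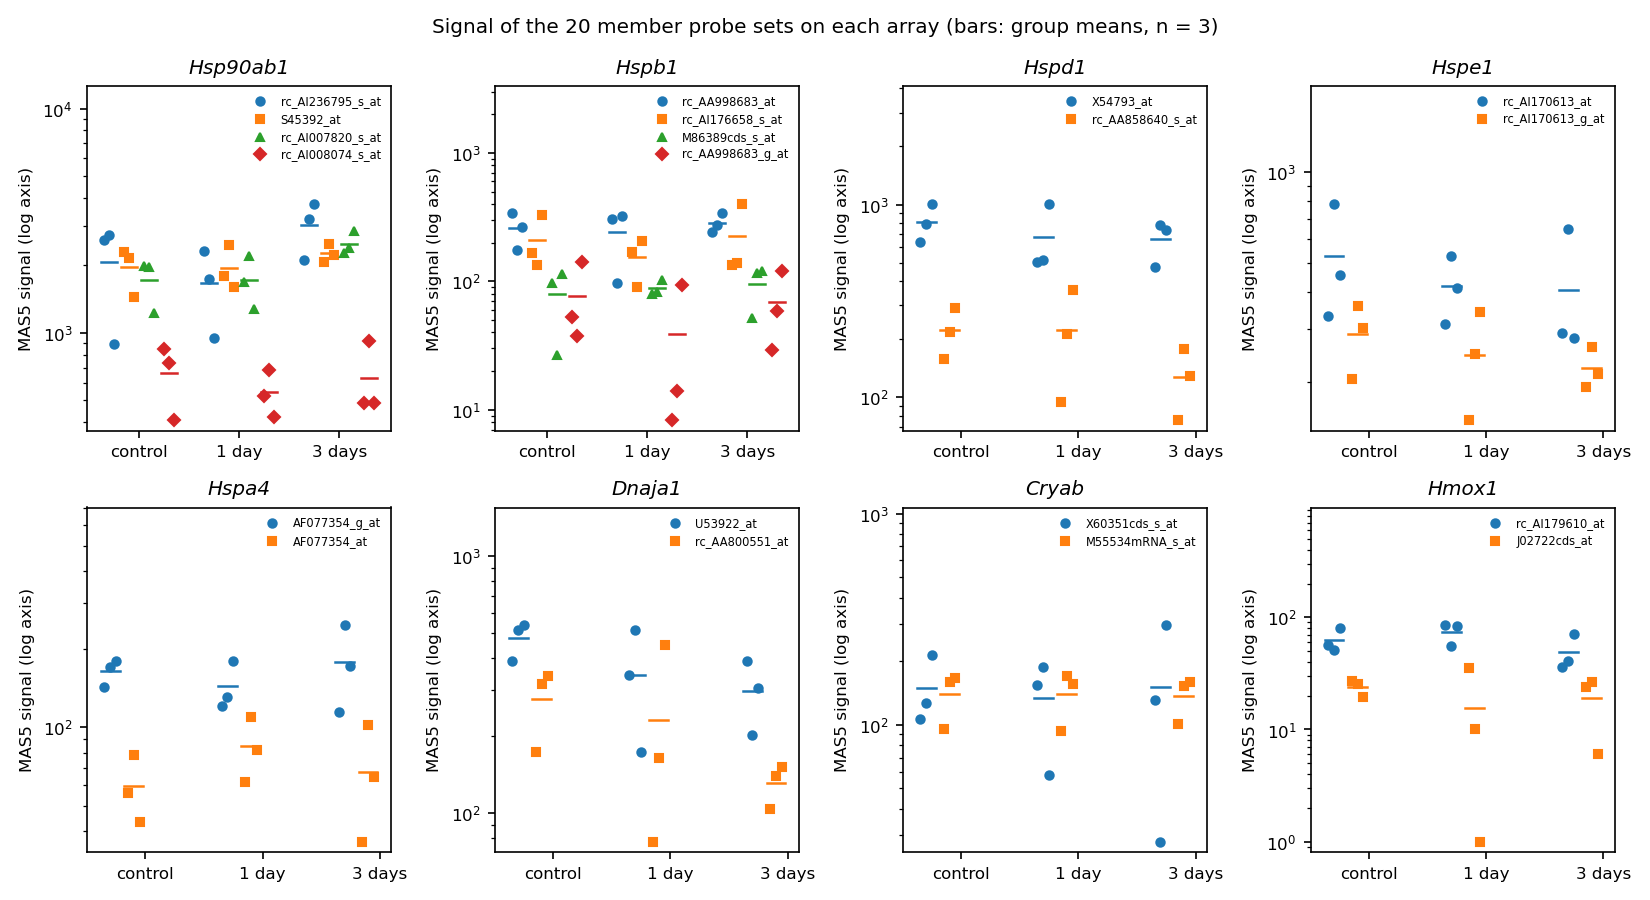
MAS5 signal (log axis) of the 20 member probe sets on each array, 1 panel per gene, with arrays a, b and c of a group from left to right and short bars at the group means (n = 3). Groups overlap for nearly every probe set; the 3-day points of Hsp90ab1 rc_AI007820_s_at (green triangles) lie above its other points, and those of Dnaja1 rc_AA800551_at (orange squares) lie below its 3 control points.

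**Figure D2:**
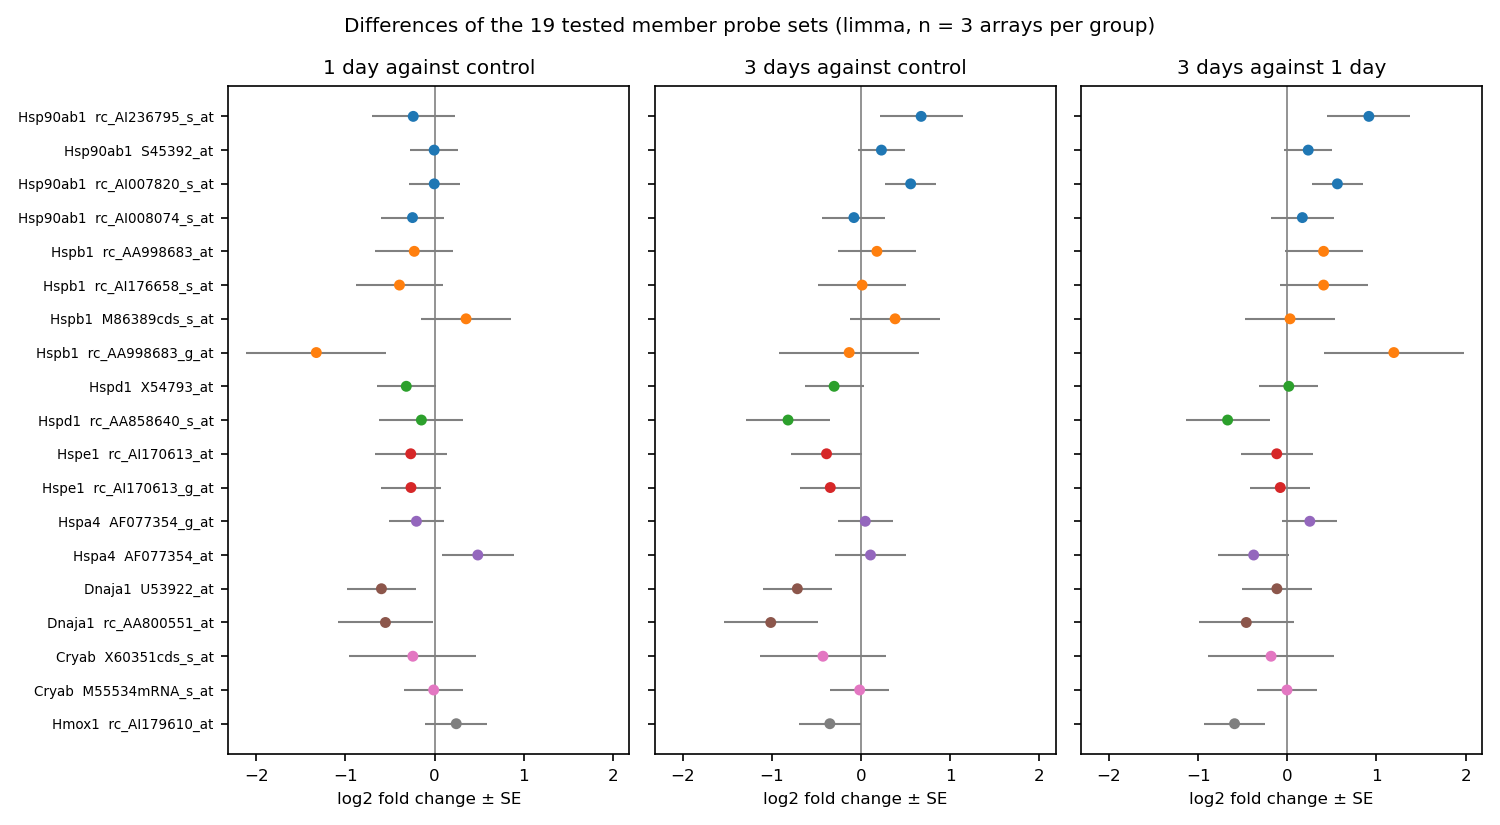
Log2 difference with its SE from the fit for each tested member probe set, in the 3 comparisons. Of 19 members, 15 lie within 1 SE of 0 at 1 day, 12 at 3 days and 14 between the 2 times, and none passed the test.

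Hsp90ab1, the constitutive cytosolic HSP90, read higher at 3 days than in controls on 3 of 4 probe sets, without passing the test, and on 2 of 4 after quantile normalization. For rc_AI007820_s_at the signal was 1993, 1961 and 1232.5 on control arrays a, b and c. It was 1691, 2213 and 1276.5 at 1 day and 2266, 2383 and 2850.2 at 3 days. Every 3-day array exceeded every control and every 1-day array. The log2 difference was -0.0039 ± 0.29 (SE, n = 3 per group) at 1 day and 0.56 ± 0.29 at 3 days, a 95% confidence interval of -0.07 to 1.19, and limma's adjusted p was 1.00.

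For rc_AI236795_s_at the signal was 2586, 2722 and 894 in controls. It was 2309, 1736 and 953.5 at 1 day and 2116, 3229 and 3761 at 3 days. The low values in the first 2 groups were those of array c, and the 3-day range contained 2 of the 3 controls. Its log2 difference was -0.24 ± 0.47 at 1 day and 0.68 ± 0.47 at 3 days. The letter pairs at 3 days gave -0.29, 0.25 and 2.07, so pair c carried most of the mean. That pair holds control array c, with its low bright signals, and 3-day array c, with the Gapdh 3'/5' ratio of 1.55. Without 3-day array c the difference was 0.50, and the part of RNA quality in it was not tested.

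S45392_at was flatter, with 2299, 2163 and 1442 in controls, 1794, 2466 and 1605 at 1 day and 2079, 2499 and 2227 at 3 days. Its groups overlapped, and its log2 difference at 3 days was 0.23 ± 0.27. The fourth, rc_AI008074_s_at, read 848, 734 and 408.5 in controls, 526, 681 and 423 at 1 day and 485, 916 and 484.5 at 3 days. It stood at -0.08 ± 0.35 at 3 days, so the probe sets of this gene did not share a direction, although their signals followed each other over the 9 arrays (r from 0.50 to 0.88 over 6 pairs, all from the same arrays).

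The 2 probe sets that list both Haus8l2 and Hspa8 were of similar shape. For rc_AI234604_s_at the signal was 2800.5, 2817 and 1561 in controls, 2633, 2655 and 1610.5 at 1 day and 2651, 3526 and 4829 at 3 days. Only 3-day arrays b and c exceeded the controls. The log2 difference was 0.62 ± 0.34 at 3 days, and 0.40 without 3-day array c, whose Gapdh ratio stood apart. M11942_s_at read 2863, 2366 and 1753 in controls, 3047, 1879 and 1958 at 1 day and 1905, 3513 and 3782 at 3 days, with a log2 difference of 0.36 ± 0.33. Neither passed the test, and which of the 2 genes supplied the signal cannot be read from these probe sets.

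On both arrays with low maximum signals the means of the Hsp90ab1 and of the Haus8l2 and Hspa8 probe sets were low together with the other bright probe sets. M11942_s_at was less so, with 1958 on 1-day array c against 1879 on 1-day array b. Of the 83 other probe sets in the top 1% of mean signal, 75 were higher and 8 lower at 3 days than in controls, with a median log2 difference of 0.49. At 1 day 52 were higher and 31 lower, with a median of 0.04. On control array c the mean of the 4 Hsp90ab1 probe sets lay 0.71 below its own average over the 9 arrays on the log2 scale, the mean of the Haus8l2 and Hspa8 probe sets 0.62 below and the median of the 83 others 0.66 below. The match was not complete: on 3-day array a the others stood at 0.25 while Hsp90ab1 stood at 0.01 and the Haus8l2 and Hspa8 probe sets at -0.18, and on 1-day array b the others stood at 0.21 and the Haus8l2 and Hspa8 probe sets at -0.19. Without control c and 1-day c, the 3-day difference of rc_AI007820_s_at was 0.33, that of rc_AI236795_s_at 0.15 and that of rc_AI234604_s_at 0.34. After quantile normalization, which gives every array the same distribution of signals, these were 0.32, 0.40 and 0.16, while S45392_at stood at -0.05 and M11942_s_at at -0.14. In bulk tissue a different share of cells and a different RNA level per cell cannot be told apart.

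**Figure D3:**
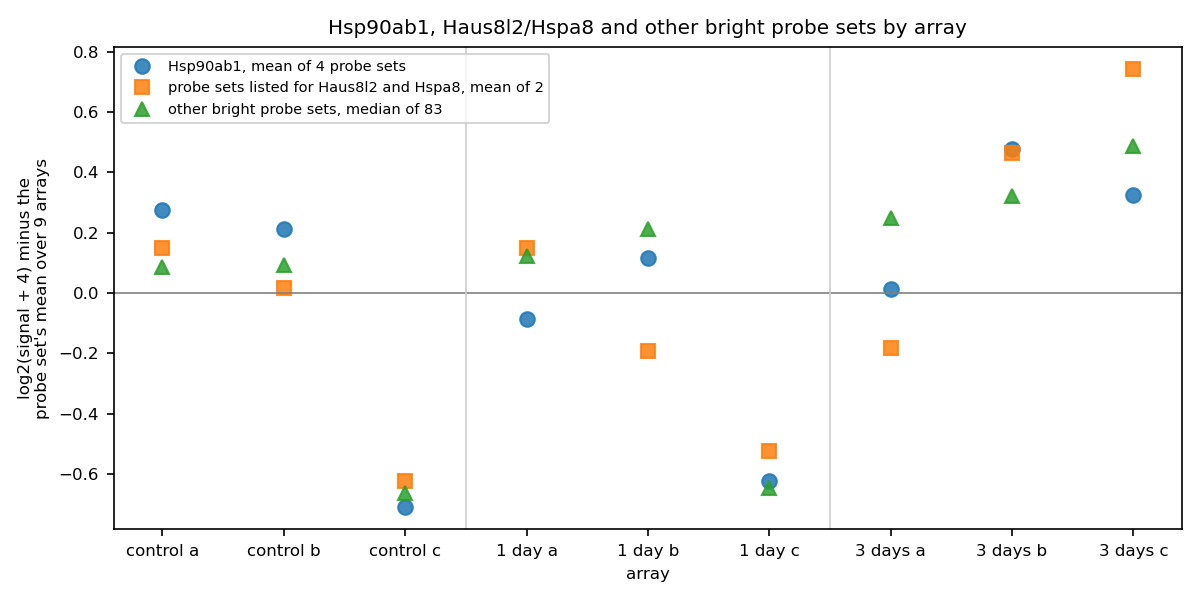
Log2 signal of each array relative to the average over the 9 arrays, for the mean of the 4 Hsp90ab1 probe sets, the mean of the 2 Haus8l2 and Hspa8 probe sets, and the median of 83 other probe sets in the top 1% of signal. All 3 series lie low on control array c (-0.71, -0.62 and -0.66) and 1-day array c (-0.62, -0.52 and -0.65), while on 3-day array a they lie apart (0.01, -0.18 and 0.25).

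Hspa4, an HSP110 protein that exchanges the nucleotide of HSP70, showed no shared shift. AF077354_g_at read 143, 170.2 and 180.5 in controls, 121, 131 and 179.5 at 1 day and 114, 247 and 173 at 3 days. The 3-day arrays held both the lowest and the highest value. Its log2 difference was -0.20 ± 0.31 at 1 day and 0.05 ± 0.31 at 3 days. AF077354_at, named for the same source sequence, read 56, 78.6 and 43.3 in controls, 61.7, 109.7 and 82 at 1 day and 36.4, 101.8 and 64.5 at 3 days. It was higher than the control of the same letter on all 3 arrays at 1 day, by 0.13, 0.46 and 0.86, with a mean of 0.48 ± 0.40, and the groups overlapped.

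Dnaja1, the J-domain protein that delivers clients to HSP70, had lower group means than control at both times on both probe sets, without passing the test, and at 1 day these rested on single arrays. For rc_AA800551_at the signal was 173, 317 and 341 in controls, 77.4, 164 and 451 at 1 day and 103, 139.5 and 151 at 3 days. Every 3-day array lay below every control, while the 1-day arrays spanned the widest range. The 3-day log2 difference was -1.01 ± 0.53, with a 95% confidence interval of -2.18 to 0.16 and an adjusted p of 1.00 by limma. That SE pools the spread of all 3 groups, the 1-day arrays included. With only control and 3-day arrays in the fit the SE was 0.32 and limma's adjusted p 0.9998. All 3 letter pairs were lower, by -0.72, -1.16 and -1.15. With the letter as a block the difference was -1.01 ± 0.34 and the adjusted p 0.873. Without control c and 1-day c it was -0.83. At 1 day the difference was -0.55 ± 0.53, and 0.037 without 1-day array a.

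U53922_at, the other Dnaja1 probe set, read 389, 518 and 537 in controls, 344, 516.5 and 173 at 1 day and 390.2, 201 and 307 at 3 days. Its log2 difference was -0.60 ± 0.39 at 1 day and -0.71 ± 0.39 at 3 days, and its letter pairs at 3 days were 0.0059, -1.35 and -0.80. At 1 day the pairs were -0.17, -0.00305 and -1.61, and without 1-day array c the 1-day difference was -0.17. Without 3-day array b the 3-day difference was -0.46. Both group means were lower for both probe sets. Array by array they did not follow each other, however, with r = -0.04 over the 9 arrays, and their lowest arrays differed: 1-day a for rc_AA800551_at and 1-day c for U53922_at.

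Hspd1 and Hspe1, the 2 parts of the mitochondrial folding chamber that share the promoter stretch printed above, were lower on the 3-day array of every letter on all 4 probe sets. For the Hspd1 probe set X54793_at the signal was 638, 796 and 1004 in controls. It was 504, 516 and 1008 at 1 day and 472, 781 and 736 at 3 days. Array a was lowest in all 3 groups, and the groups overlapped. The log2 difference was -0.32 ± 0.33 at 1 day and -0.30 ± 0.33 at 3 days. Without 3-day array a the 3-day value was -0.075.

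The second Hspd1 probe set, rc_AA858640_s_at, read 159, 219 and 289.8 in controls, 94.8, 214 and 359 at 1 day and 76.2, 179 and 129 at 3 days. Of the 3-day arrays, a and c lay below all controls and b did not. Its log2 difference was -0.82 ± 0.47 at 3 days, with letter pairs of -1.02, -0.29 and -1.15, and -0.50 without 3-day array a. With the letter as a block it was -0.82 ± 0.28, with an adjusted p of 0.873 by limma.

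For Hspe1, rc_AI170613_at read 332, 785 and 455 in controls, 312, 527 and 411 at 1 day and 291, 646 and 280.1 at 3 days. Array b was highest in every group, so the spread between letters was larger than the difference between groups. The log2 difference was -0.27 ± 0.40 at 1 day and -0.39 ± 0.40 at 3 days. The partner rc_AI170613_g_at read 205, 358 and 302 in controls, 149, 247 and 343 at 1 day and 192, 262 and 213 at 3 days, with -0.26 ± 0.34 at 1 day and -0.34 ± 0.34 at 3 days. The letter pairs at 3 days were -0.19, -0.28 and -0.69 for the first and -0.09, -0.45 and -0.50 for the second. Without control array b the 3-day differences were -0.051 and -0.17.

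Over the 9 arrays the signals of Hspd1, Hspe1 and rc_AA800551_at of Dnaja1 went up and down together, with a median r of 0.82 over the 8 pairs of different genes and a range of 0.38 to 0.92. Over all 172 pairs of probe sets from different member genes the median r was -0.04. With both Dnaja1 probe sets the median over 12 pairs was 0.52, since U53922_at did not share this pattern, with r between -0.30 and 0.12 against the probe sets of Hspd1 and Hspe1. The pattern was not theirs alone: against the same 5 probe sets, M55534mRNA_s_at of Cryab had r from 0.60 to 0.77 and AF077354_g_at of Hspa4 from 0.48 to 0.79. The probe sets singled out here were chosen after their values were seen. These correlations rest on the same 9 arrays, which include the letter pattern, and are given as a description.

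**Figure D4:**
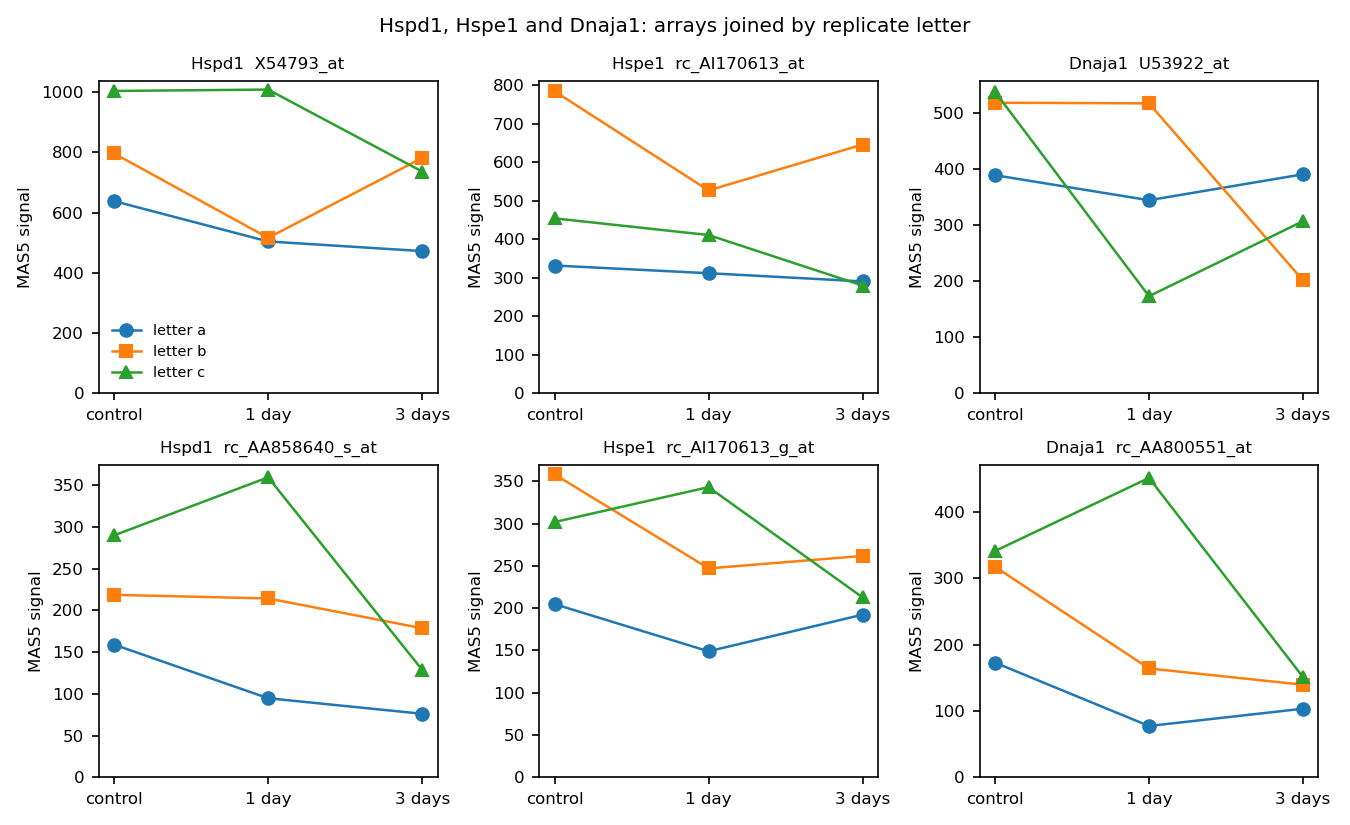
Signal (linear axis) of the Hspd1, Hspe1 and Dnaja1 probe sets, with lines joining arrays of the same letter over control, 1 day and 3 days. For both Hspd1 and both Hspe1 probe sets and for rc_AA800551_at each line ends lower at 3 days than at control, while its course through 1 day differs between letters.

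Hspb1, the small heat shock protein HSP27, gave 4 probe sets that did not share a direction at 1 day. rc_AA998683_at read 337.5, 174 and 263 in controls, 307, 96.2 and 320.2 at 1 day and 240.2, 276 and 340.2 at 3 days. Its log2 difference was -0.23 ± 0.44 at 1 day and 0.18 ± 0.44 at 3 days. rc_AI176658_s_at read 166, 133 and 330.3 in controls, 169.6, 89.8 and 206 at 1 day and 133, 139.6 and 401 at 3 days, with -0.39 ± 0.49 and 0.01 ± 0.49. Array c was the highest of its group for this probe set at all 3 times.

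M86389cds_s_at of Hspb1 read 97.7, 26.7 and 115 in controls, 79.2, 83.2 and 102.5 at 1 day and 51.6, 116 and 119 at 3 days. Its difference of 0.35 ± 0.50 at 1 day turned on the low control b: without that array it was -0.26. The fourth Hspb1 probe set, rc_AA998683_g_at, read 52.8, 37.3 and 141 in controls, 8.3, 14 and 93.3 at 1 day and 29, 58.5 and 121 at 3 days. All 3 letter pairs were lower at 1 day, by -2.21, -1.20 and -0.58, and higher from 1 to 3 days, by 1.42, 1.80 and 0.36. The 1-day log2 difference was -1.33 ± 0.78 without and -1.33 ± 0.39 with the letter as a block, with adjusted p of 1.00 and 0.958 by limma. It ran from -2.23 without 1-day array c to -0.74 without 1-day array a. The signals of 1-day arrays a and b were low, under 23.1, the limit set for the mean signal. For rc_AA998683_at, named for the same source sequence, the 1-day letter pairs were -0.13, -0.83 and 0.28. A further probe set, rc_AA799438_at, lists both Asb2 and Hspb1 and was not counted.

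Cryab, alpha-B crystallin, a small heat shock protein abundant in oligodendrocytes and astrocytes, had the flattest probe set of the group. M55534mRNA_s_at read 95.8, 159 and 167 in controls, 93.2, 169.9 and 156 at 1 day and 101, 153 and 159 at 3 days. Array a was lowest in each group, and the 3 arrays of a letter lay close together. The log2 difference was -0.01 ± 0.33 at both times, with a 95% confidence interval of -0.74 to 0.72 at 1 day and -0.75 to 0.72 at 3 days. X60351cds_s_at read 107, 126 and 213 in controls, 155, 188 and 58.1 at 1 day and 131, 28 and 296 at 3 days. Its 2 lowest values were 1-day c and 3-day b, its SE was 0.71, and its arrays did not follow those of the other probe set (r = 0.02).

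The glial marker sums on the same arrays are given beside these small heat shock proteins. Oligodendrocyte markers (8 of 12 with a probe set, none at 0) summed to 5288 to 8243 in controls, 4457 to 8629 at 1 day and 3900 to 8513 at 3 days. Astrocyte markers (10 of 12, none at 0) summed to 9425 to 14506 in controls, 9661 to 14934 at 1 day and 14609 to 19201 at 3 days. The 3-day sums lay above all controls, the nearest being 14609 against 14506. The lowest sums of the first 2 groups were those of control c and 1-day c, where bright signals were low. By gene, 7 of the 10 astrocyte markers were higher and 3 lower at 3 days than in controls, with 0 called. The part of glial cells in the values of Hspb1 and Cryab was not tested.

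Hmox1, the inducible heme oxygenase, had 1 probe set above the signal limit of the test. This probe set, rc_AI179610_at, read 56.4, 50.7 and 79.7 in controls, 84.8, 55.4 and 82.9 at 1 day and 36.1, 40.8 and 70.5 at 3 days. Against the control of the same letter all 3 arrays were higher at 1 day, by 0.56, 0.12 and 0.05, and all 3 were lower at 3 days, by -0.59, -0.29 and -0.17. The groups overlapped. The log2 difference was 0.24 ± 0.35 at 1 day, -0.35 ± 0.35 at 3 days and -0.59 ± 0.35 between 3 days and 1 day (95% confidence interval -1.35 to 0.17, limma adjusted p 0.998). Single arrays moved these values: the 1-day difference was 0.12 without control array b and 0.43 without 1-day array b, and the 3-day difference was -0.17 without control array c or without 3-day array a and -0.62 without 3-day array c. The second probe set, J02722cds_at, lay under the signal limit of the test, with 26.8, 25.2 and 19.4 in controls, 35.6, 10.1 and 1 at 1 day and 24.1, 26.7 and 6.1 at 3 days, and its values did not follow those of the first (r = -0.40).

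Macrophages that clear red cells are rich in Hmox1, so markers of those cells and of blood are given beside it. Microglia and macrophage markers (9 of 12 with a probe set, none at 0) summed to 1348 to 1391 in controls, 1479 to 2062 at 1 day and 1605 to 1635 at 3 days. Blood markers (5 of 7, none at 0) summed to 2737 to 3086 in controls, 3422 to 4690 at 1 day and 1687 to 2288 at 3 days. The blood sums lay above control at 1 day and below it at 3 days, as did the group means of Hmox1 rc_AI179610_at, whose arrays overlapped. By array they differed: 1-day array b had the highest blood sum, 4690, and the lowest 1-day Hmox1 signal, 55.4. The microglia and macrophage sums lay above control at both times. The part of these cells and of blood in the Hmox1 values was not tested.

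Of the other genes of the folding machinery more read lower than higher in each comparison, none passed the test, and in 2 of the 3 comparisons the split turned with single arrays. Of 69 chaperones, co-chaperones, chaperonin subunits and heat shock factors listed, 28 had a probe set with 1 symbol and 26 reached the signal limit. Of these 26, 9 were higher and 17 lower at 1 day (median log2 difference -0.07), 6 were higher and 20 lower at 3 days (median -0.13), and 9 were higher and 17 lower between 3 days and 1 day (median -0.19). None was called and none had an unadjusted p under 0.05 by limma. With the letter as a block none was called either, and 0 of 26 at 1 day, 2 of 26 at 3 days (Hspa13 and Dnaja4; background 5.15%) and 2 of 26 between the times (Dnaja4 and Chordc1; background 5.24%) had an unadjusted p under 0.05. The 3-day count was 8 higher and 18 lower after quantile normalization, 5 and 21 after median centring, and 11 and 15 without control array c. The 1-day split turned without control c (14 higher and 12 lower) and without 1-day a (15 and 11). The split between 3 days and 1 day turned without 3-day a (14 and 12, median 0.0049) and was 12 and 14 without 1-day c.

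Dnaja4, a relative of Dnaja1, had the smallest p of that list at 3 days. It read 180.3, 169.9 and 296 in controls, 158, 131 and 269 at 1 day and 58.9, 139 and 158 at 3 days. Its 3-day arrays all lay below the controls (background 3.01%), with a log2 difference of -0.91 ± 0.41 and an adjusted p of 1.00 by limma. Hspa13, an HSP70 relative of the endoplasmic reticulum, stood at -0.83 ± 0.57 at 1 day, where its arrays lay below all controls (background 1.58%). At 3 days it stood at -1.05 ± 0.57, and its arrays overlapped the controls. The stress-inducible Hspa1a had low signals that overlapped, at 28.2, 7.7 and 14.3 in controls and 28.8, 42.1 and 23.2 at 1 day. It stood at 0.86 ± 0.53 at 1 day, and Hspb6, a small heat shock protein, at -0.46 ± 0.44. Serpinh1, the collagen chaperone, stood at -0.48 ± 0.36 at 3 days. Between 3 days and 1 day Dnaja4 stood at -0.68 ± 0.41, Chordc1, an HSP90 partner, at -0.62 ± 0.43 and Cct6a, a cytosolic chaperonin subunit, at 0.41 ± 0.32.

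Of the 22 heme oxygenase and antioxidant genes listed around Hmox1, 11 had a probe set and 10 reached the signal limit. At 1 day 7 were higher and 3 lower (median 0.07). At 3 days 5 were higher and 5 lower (median 0.06), and between the times 6 were higher and 4 lower (median 0.08). None was called. Gclm, a subunit of the enzyme that limits glutathione synthesis, stood at 0.97 ± 0.41 at 1 day, where its arrays lay above all controls (background 2.63%). At 3 days it stood at 1.05 ± 0.41, and its arrays overlapped the controls. It was the 1 gene of the list with an unadjusted p under 0.05 by limma at 1 day (background 1.01%) and at 3 days (background 1.72%). Its signals were low, at 15.8, 22.5 and 39.1 in controls and 60.8, 41.6 and 53.5 at 1 day. Hmox2, the constitutive heme oxygenase, stood at 0.37 ± 0.34 and Gsta4 at -0.50 ± 0.48 at 1 day. Nqo1 stood at -0.75 ± 0.44 at 3 days and Txnrd1 at -0.53 ± 0.27. Between 3 days and 1 day Nqo1 stood at -0.94 ± 0.44, Txnrd1 at -0.54 ± 0.27 and Mt3, a brain metallothionein, at 0.46 ± 0.31. The Mt3 arrays lay wholly higher at 3 days (background 3.05%). With the letter as a block Gclm was again the 1 gene of 10 with an unadjusted p under 0.05 at 1 day (background 2.59%) and at 3 days (background 5.15%). Between the times 2 of 10 had one (Nqo1 and Txnrd1; background 5.24%), with no call.

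The genes whose log2 signal followed each member most closely over the 9 arrays were drawn from 3188 candidates, each member being represented by its probe set with the highest mean signal. Hsp90ab1 was closest to Ndrg4 (r = 0.963) and Rpl35 (r = 0.959), and Hspa4 to Zfp36l1 (r = 0.971) and Dzip3 (r = 0.952). Dnaja1, by U53922_at, was closest to Naa15 (r = 0.971) and Ppp1cb (r = 0.952). Hspd1 was closest to Eif4h (r = 0.985) and Ndufc1 (r = 0.965), and Hspe1 to Cdk17 (r = 0.979) and Copb1 (r = 0.972), so the 2 folding chamber genes had no closest gene in common. Hspb1 was closest to Nfkbia (r = 0.987) and Ceacam4 (r = 0.959), Cryab, by X60351cds_s_at, to Gjb1 (r = 0.922) and Atp2a2 (r = 0.906), and Hmox1 to Plin2 (r = 0.885) and Mpzl1 (r = 0.879). With 9 arrays and so many candidates, values of this size rank the genes and do no more.

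Agreement between probe sets of 1 gene differed widely. Over the 18 such pairs r ran from -0.40 to 0.88. It was 0.81 for Hspd1 and 0.73 for Hspe1, 0.43 for Hspa4 and 0.43 to 0.75 for Hspb1. The pairs of Dnaja1, Cryab and Hmox1 showed no positive agreement (-0.04, 0.02 and -0.40), so for these 3 genes the per-array pattern depends on the probe set read. By the array maker's naming, probe sets ending in _s_at may match more than 1 transcript, and this holds for 3 of the 4 Hsp90ab1 probe sets, 2 of the 4 of Hspb1, rc_AA858640_s_at of Hspd1 and both of Cryab.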

How the data were processed

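The authors deposited 1 table of MAS5 signals, linear intensities, for 9 arrays, per the submitters' processing notes; the version and settings are not given in the sources used here. Probe set symbols came from the platform annotation, which can be old (7006 probe sets with 1 symbol, 308 with several, 1426 with none). From the deposited intensities, log2(signal + 4) was fitted in limma 3.58.1 (R 4.3.3) with 1 mean per group, all 9 arrays, 6 residual degrees of freedom and an intensity trend in the variance prior. Probe sets under the 40th percentile of mean signal were left out. Adding 4 shrinks differences of low signals. The fit was tested on simulated data with independent arrays and no letter effect. The changes put into those data were larger than any member difference, so that test does not cover differences of the size seen here.

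Titles share the letters a, b and c. Deviations of same-letter arrays from their group means correlated in all 9 pairs (r from 0.17 to 0.47; other pairs -0.33 to 0.12), so the letter was treated as a pairing, with 4 residual degrees of freedom, and both fits are given. The 3 genes with the smallest p per pathway list and comparison, and the 2 most correlated genes per member, are named. Members and lists were chosen with earlier results of these data known. Promoters came from RefSeq (GRCr8). Figures used Python 3.11.15 and matplotlib 3.10.9. Alternatives covered the added constant, the filter, normalization, variance prior, samples and block.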

Additional observations from a re-analysis of the deposited data

Results flagged for a closer look

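Hmox1 probe set rc_AI179610_at was picked out because its arrays moved in opposite directions at the 2 times: all 3 were higher than the same-letter control at 1 day and all 3 were lower at 3 days. Of all probe sets, 16.8% were higher in all 3 pairs at 1 day and 13.2% lower in all 3 at 3 days. The share with both was not counted, and the same controls serve both times. The log2 difference between 3 days and 1 day was -0.59, and it did not pass the test (limma adjusted p 0.998). With single arrays left out it ran from -0.86 to -0.42. The second Hmox1 probe set, which lay under the signal limit, did not follow it.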

How the results depend on the processing

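No probe set was called in any of the 20 alternatives, with all samples or with arrays left out, for members, listed genes or all probe sets, and a joint F test of all groups had 0 calls as well. Of 1140 values of the 19 members over the alternatives, 1058 kept the direction and 82, in 34 of 57 results, reversed, 66 of them with single arrays left out. For the 2 Haus8l2 and Hspa8 probe sets 8 of 120 values reversed. Both totals include alternatives that cannot change a difference. These are the filter, the variance prior, the block, the fit of only the groups compared, and leaving out an array of the third group. The counts of kept directions therefore overstate how stable the differences were. The replicate block changed no call: the lowest adjusted p of a member was 0.770 with it and 0.998 without. With only the groups compared in the fit, 0 members had an unadjusted limma p under 0.05 at 1 day, against 40 of all 5247. At 3 days 3 members had one (140 of all 5247), and between the times 1 had one (69 of all 5247). With 3 arrays in a group and a median SE of 0.40 on the log2 scale, differences of the size seen in most members lie within the error. The cause of the reversals was not tested.

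After quantile normalization the log2 difference was 0.0026 at 1 day, 0.030 at 3 days and 0.027 between the times for Cryab M55534mRNA_s_at, and 0.017, -0.050 and -0.067 for Hsp90ab1 S45392_at. It was -0.14 at 3 days and -0.12 between the times for M11942_s_at (Haus8l2 and Hspa8), and -0.013 between the times for Hspd1 X54793_at. Median centring gave -0.025 at 3 days for Hspb1 rc_AI176658_s_at. Without control c and 1-day c, Cryab M55534mRNA_s_at stood at 0.029 at 1 day, 0.13 at 3 days and 0.097 between the times, and X60351cds_s_at at 0.54 at 1 day. Values at 3 days were -0.084 for Hspa4 AF077354_at and 0.39 for Hspb1 rc_AA998683_g_at. Between the times they were 0.19 for Dnaja1 rc_AA800551_at and 0.20 for Hspe1 rc_AI170613_g_at.

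With each array left out in turn, these results changed sign, with the following lowest and highest values. At 1 day against control, Cryab ran from -0.26 to 0.25 (M55534mRNA_s_at) and -0.56 to 0.25 (X60351cds_s_at), Dnaja1 rc_AA800551_at from -1.20 to 0.037, and the Haus8l2 and Hspa8 probe sets from -0.25 to 0.14 (M11942_s_at) and -0.32 to 0.19 (rc_AI234604_s_at). Hsp90ab1 ran from -0.23 to 0.20 (rc_AI007820_s_at), -0.76 to 0.12 (rc_AI236795_s_at) and -0.21 to 0.13 (S45392_at). Hspb1 ran from -0.26 to 0.72 (M86389cds_s_at) and -0.52 to 0.33 (rc_AA998683_at), Hspd1 rc_AA858640_s_at from -0.58 to 0.36, and Hspe1 from -0.55 to 0.068 (rc_AI170613_at) and -0.54 to 0.051 (rc_AI170613_g_at).

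At 3 days against control, Cryab ran from -0.26 to 0.19 (M55534mRNA_s_at) and -1.16 to 0.46 (X60351cds_s_at), Hsp90ab1 rc_AI008074_s_at from -0.39 to 0.13, and Hspa4 from -0.23 to 0.47 (AF077354_at) and -0.22 to 0.33 (AF077354_g_at). Hspb1 ran from -0.23 to 0.76 (M86389cds_s_at), -0.076 to 0.39 (rc_AA998683_at), -0.62 to 0.39 (rc_AA998683_g_at) and -0.50 to 0.39 (rc_AI176658_s_at).

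Between 3 days and 1 day, Cryab ran from -0.26 to 0.20 (M55534mRNA_s_at) and -0.91 to 0.70 (X60351cds_s_at), Dnaja1 from -1.05 to 0.19 (rc_AA800551_at) and -0.54 to 0.24 (U53922_at), Hsp90ab1 rc_AI008074_s_at from -0.14 to 0.34 and Hspa4 AF077354_g_at from -0.013 to 0.53. Hspb1 ran from -0.17 to 0.41 (M86389cds_s_at), -0.15 to 0.70 (rc_AA998683_at) and -0.10 to 0.68 (rc_AI176658_s_at), Hspd1 X54793_at from -0.15 to 0.34, and Hspe1 from -0.51 to 0.089 (rc_AI170613_at) and -0.40 to 0.20 (rc_AI170613_g_at).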
